A study of Sus scrofa with 9 samples.

Results

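Translation initiation factor genes were taken as every gene symbol that starts with EIF and a digit, leaving out the eIF2 kinases (EIF2AK symbols). This gave 43 genes in each table, of 18933 genes in the table of untreated Obese-MSCs and Lean-MSCs and of 18992 in the table of vitamin-C-treated and untreated Obese-MSCs. Both tables hold the same 43 genes, all of which have a position in Sscrofa11.1, on 15 chromosomes, with 7 on chromosome 13 and 2 on the X chromosome. By role they were 3 eIF2 subunits, 4 eIF2B subunits, 11 eIF3 subunits and 11 genes of the cap-binding eIF4F complex, its relatives and helpers. There were also 4 eIF4E-binding proteins, 5 genes listed under scanning and subunit joining and 5 others. EIF2B4, EIF3B, EIF3C, EIF4B and EIF5 were not analysed here.

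The libraries profile 5-hydroxymethylcytosine (5hmC) in DNA of mesenchymal stem/stromal cells (MSCs) grown from subcutaneous abdominal fat of female domestic pigs. From 3 months of age the pigs ate standard chow in the Lean group, and in the Obese group, over 16 weeks, a diet high in fat and fructose. There were 3 libraries in each of 3 groups, which are Lean-MSCs (libraries 7, 8 and 9), untreated Obese-MSCs (1, 2 and 3) and Obese-MSCs given vitamin-C at 50 µg/mL for 48 h from the third passage (4, 5 and 6). All cells were cultured in platelet lysate medium, the vitamin-C was given in culture and not to the animals, no Lean-MSCs received this dose, the growth medium of all groups held a low amount of a vitamin-C phosphate according to the study, and the labels do not tie a treated culture to an untreated one by pig. Cultures of the same pigs may stand in both Obese groups, and they were compared as unpaired. By hMeDIP-seq, an antibody captures DNA fragments that carry 5hmC, and the captured fragments are sequenced. Each value is a normalized count of such reads over all exons of a gene. It is a level of the DNA mark, not of RNA or protein, and since the cells were profiled in bulk, fewer cells with the mark and less of the mark per cell cannot be told apart.

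Initiation factors bring the ribosome to the start codon of an mRNA. The eIF2 complex delivers the initiator tRNA with GTP, and eIF2B reloads eIF2 with GTP, a step that stress kinases block by phosphorylating the eIF2 alpha subunit. The eIF4F complex recognizes the cap of the mRNA and unwinds its leader, eIF4E-binding proteins restrain it until mTORC1 phosphorylates them, and eIF3 holds the mRNA and the small ribosomal subunit together. The mark itself is made by TET enzymes, which oxidize 5-methylcytosine and for which vitamin-C is a cofactor.

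Few reads stood behind many of the 43 genes. In Lean library 8 and treated library 4, nearly all values of the table (99.98% and 99.99%) were whole multiples of a fixed step, 0.993 and 1.01 normalized counts, so that reads could be read off. In Lean library 8 the 43 genes had between 1 and 134 reads with a median of 13, and 16 of them had fewer than 10. In treated library 4 they had between 0 and 183 with a median of 17, and 13 had fewer than 10. Totals of normalized counts over all genes were close, at 494566 to 522269 for the first table and 547242 to 593846 for the second. Since the counts were already normalized, these totals do not show sequencing depth. The defining MSC genes NT5E, THY1 and ENG carried 5hmC in every library, but so did PTPRC, ADIPOQ and PECAM1, genes of leukocytes, adipocytes and endothelium, so the levels of the mark do not identify the cells. CD14, a monocyte gene, was at 0 in the 3 Lean libraries and between 0.650 and 4.49 in the untreated Obese libraries. ENG was also apart, at 52.0 to 67.4 in the untreated Obese and 31.9 to 51.7 in the Lean libraries. In the second table CDH5, an endothelial gene, was apart, at 11.6 to 15.8 in the treated and 16.1 to 18.1 in the untreated libraries. The other markers examined (CD34, PLIN1, LEP, VWF and those above) overlapped in each table, and the part of these genes in the results was not tested.

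Lean library 7 stood apart in these genes. The 43 genes together held 0.251% of its normalized counts, against 0.206% to 0.215% in the other libraries of the first table. It was the highest of the 6 libraries for 7 of the 14 initiation factor genes with a mean over 30 normalized counts, while it was the highest for 20.004% of all genes at that level. Values without it are given beside the median of the list, EIF2B5 and several other genes. Without it the sign of the Obese over Lean log2 ratio changed for EIF1, EIF2D, EIF2S2, EIF3D, EIF3I, EIF4A2, EIF4EBP1, EIF4G2, EIF4H, EIF5A and EIF5B.

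Between untreated Obese-MSCs and Lean-MSCs, EIF2B5 was the single initiation factor gene that met the criteria of the study for a difference, and it was low in Obese-MSCs. These criteria ask for an unadjusted p of 0.05 or less in a per-gene test of the means with equal variances and a ratio of means of at least 1.4 or at most 0.7. They were met by 1 of the 43 genes (2.33%) and by 4.5% of all genes, 2.43% being low, so the share among initiation factor genes was no larger than that of the table. The libraries of the groups did not overlap for 4 of the 43 genes (9.30%), against 11.8% of all genes. EIF3H and EIF4A1 were higher in every Obese library, as were 5.7% of all genes, and EIF1AD and EIF2B5 lower, as were 6.06%. With limma on log2(value + 1), none of the 40 genes abundant enough to be tested passed a Benjamini-Hochberg adjusted p of 0.05, the lowest being 0.694 for EIF1AD. At an unadjusted limma p of 0.05 or less there were 4 (EIF1AD, EIF3H, EIF4E3 and EIF4ENIF1), or 10.0%, against 6.81% of all genes tested. None of these 4 reached that level when Lean library 7 was left out. EIF1AD kept it when any other library was left out. EIF3H, EIF4E3 and EIF4ENIF1 all lost it without untreated library 2 as well. EIF4E3 and EIF4ENIF1 also lost it without untreated library 3, EIF4ENIF1 without Lean library 8, and EIF3H and EIF4E3 without Lean library 9. The share of all genes at that level with a library left out is not given here.

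As a list, the genes lay close to the rest of the table. The ratio of Obese over Lean means was above 1 for 19 of them (44.2%) and below 1 for 24, while it was above 1 for 50.6% of all genes. Without EIF4EBP1, which was near 0, these numbers were 18 and 24. Leaving out Lean library 7 changed the direction of the genes listed above, some upward and some downward. The median log2 ratio of the 43 genes was -0.10 against 0.0063 for all genes, and without Lean library 7 it was 0.011 against 0.024. Obese and Lean means were within 1.4-fold of each other for 31 of the 43 genes (72.1%) and for 70.3% of all genes.

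**Figure D1:**
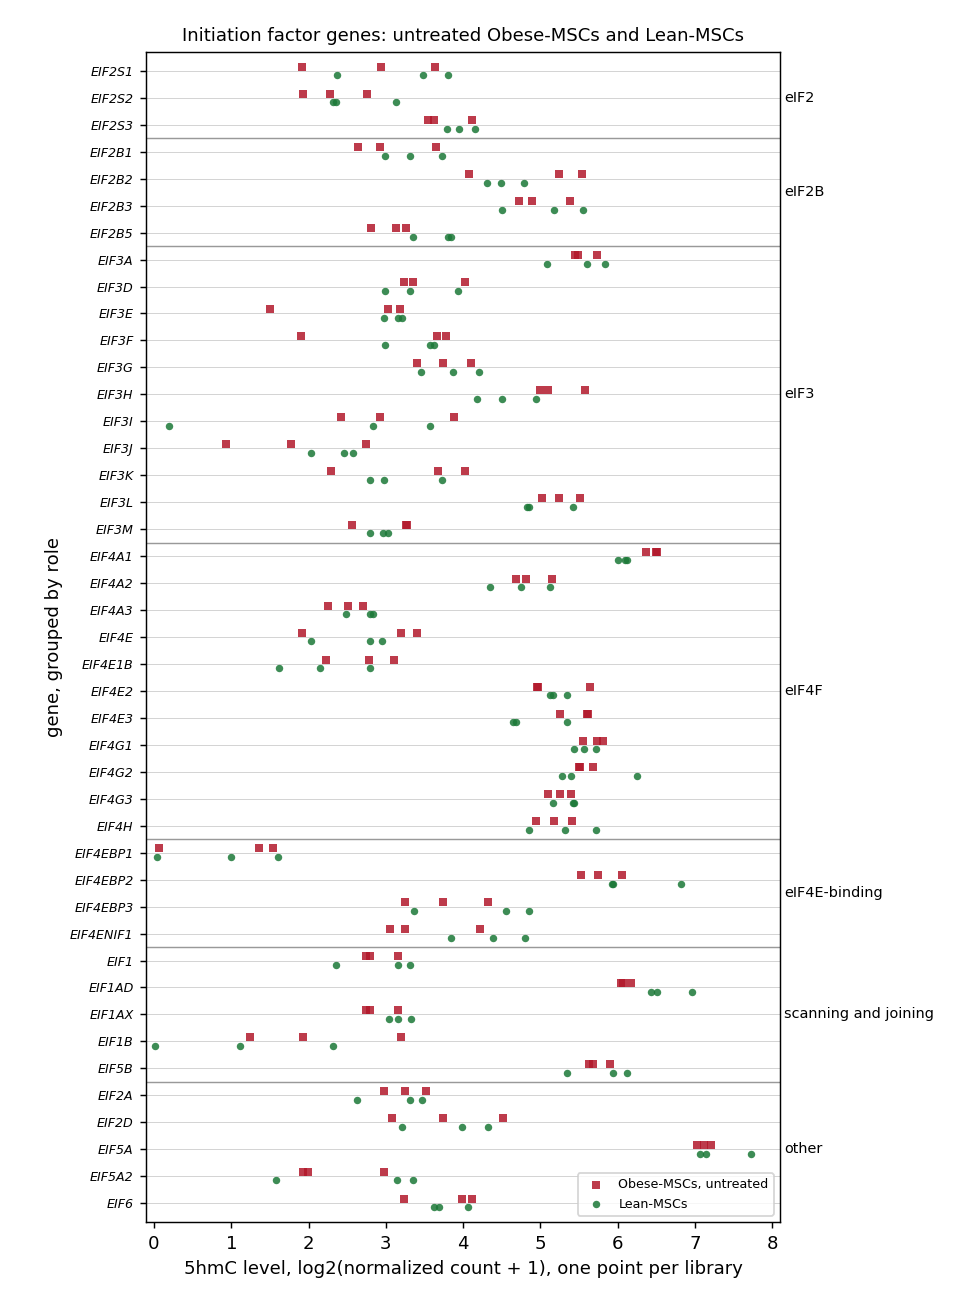
5hmC level on a log2(normalized count + 1) scale (x axis) of the 43 initiation factor genes (y axis, grouped by role) in the 3 untreated Obese-MSC libraries (squares) and the 3 Lean-MSC libraries (circles). The groups are apart for EIF3H, EIF4A1, EIF1AD and EIF2B5 and overlap for the other genes.

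EIF2B5 encodes the catalytic epsilon subunit of eIF2B, which carries out the nucleotide exchange. The gene lies on chromosome 13 from 122060408 to 122070327 (Sscrofa11.1) and overlaps no other annotated gene. Its 5hmC level was 7.78, 8.55 and 5.996 normalized counts in untreated Obese libraries 1, 2 and 3, and 9.17, 12.9 and 13.3 in Lean libraries 7, 8 and 9. All 3 Obese libraries were thus below all 3 Lean libraries, but the highest Obese and the lowest Lean value were only 0.617 apart, less than 1 read was worth in Lean library 8. The means were 7.44 ± 1.31 and 11.8 ± 2.29 (SD, n = 3 each), a ratio of 0.630 and a log2 ratio of -0.67. By an exact permutation test (two-sided) p was 0.1, the smallest that 3 libraries against 3 allow, and limma gave an adjusted p of 0.801 with a 95% interval of its log2 difference from -1.35 to 0.15. The Lean value of 12.9 in library 8 came from 13 reads, for which the exact Poisson interval, covering counting error only, is 6.92 to 22.2 reads. With each of the 6 libraries left out in turn, its log2 ratio stayed between -0.82 and -0.53, while the criteria, with fewer libraries behind the test, were met in 1 case, without Lean library 7.

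The other eIF2B subunits measured had groups that overlapped, and no test of a difference between subunits was made. EIF2B1, the alpha subunit and part of the regulatory core (chromosome 14), was at 5.22, 6.61 and 11.5 normalized counts for the Obese and 6.91, 8.93 and 12.3 in the Lean libraries, with a log2 ratio of -0.27. EIF2B2, the beta subunit (chromosome 7), had 36.7, 15.9 and 45.4 in the Obese and 21.5, 18.9 and 26.7 in the Lean libraries, with a log2 ratio of 0.55. EIF2B3, the gamma subunit and the partner of epsilon (chromosome 6), had 28.6, 25.5 and 40.8 in the Obese and 35.0, 45.7 and 21.6 in the Lean libraries, with a log2 ratio of -0.11. The log2 ratios of EIF2B1 and EIF2B3 thus had the sign of EIF2B5 and that of EIF2B2 the opposite one. The limma 95% intervals were from -1.11 to 0.56 for EIF2B1, from -0.29 to 1.13 for EIF2B2 and from -0.70 to 0.56 for EIF2B3. EIF2B2 shares its span with ACYP1 and EIF2B3 with LOC110261240, so reads over shared exons cannot be assigned to either gene.

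The share of EIF2B5 in the summed 5hmC of the 4 subunit genes overlapped between the diets. It was 9.93%, 15.1% and 5.78% in untreated Obese libraries 1, 2 and 3 and 12.6%, 14.9% and 18.0% in Lean libraries 7, 8 and 9. Untreated library 2 had a larger share than Lean libraries 7 and 8.

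**Figure D2:**
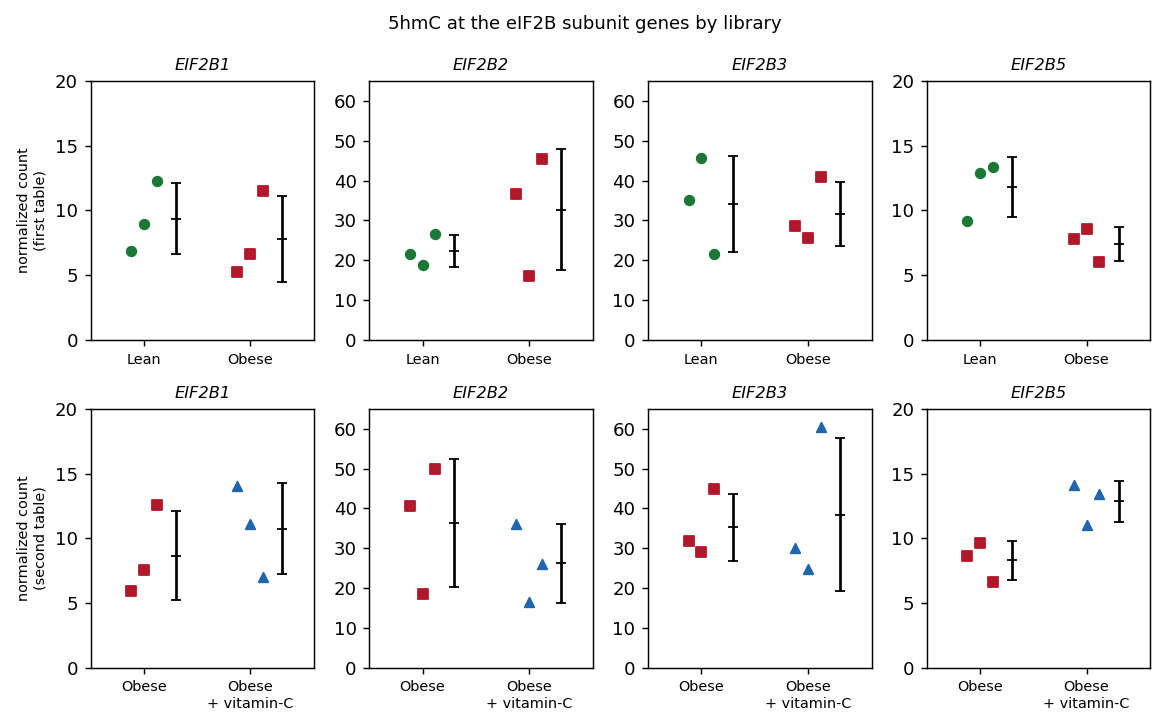
Normalized counts (y axis) of the 4 eIF2B subunit genes by library, for untreated Obese-MSCs and Lean-MSCs in the first table (top row) and for vitamin-C-treated and untreated Obese-MSCs in the second (bottom row), with the mean and SD beside the 3 points of each group. The y axis ends at 20 for EIF2B1 and EIF2B5 and at 65 for EIF2B2 and EIF2B3. Only for EIF2B5 are the groups apart, at 5.996 to 8.55 against 9.17 to 13.3 (top) and at 6.65 to 9.63 against 11.06 to 14.1 (bottom).

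For the eIF2 complex, on which eIF2B acts, all 3 log2 ratios were below 0 and all 3 genes had overlapping groups. Without Lean library 7 the log2 ratio of EIF2S2 was 0.03, so the shared sign rested on that library. EIF2S1, the alpha subunit that stress kinases phosphorylate (chromosome 7), had 2.77, 6.63 and 11.4 normalized counts in the Obese and 10.1, 12.9 and 4.15 in the Lean libraries, a log2 ratio of -0.38. EIF2S2, the beta subunit (chromosome 17, overlapping ASIP), had 3.84, 2.81 and 5.77 in the Obese and 7.78, 3.97 and 4.12 in the Lean libraries, a log2 ratio of -0.35. EIF2S3, the GTP-binding gamma subunit (X chromosome, overlapping KLHL15), had 10.7, 11.4 and 16.3 in the Obese and 16.9, 12.9 and 14.4 in the Lean libraries, a log2 ratio of -0.20. The Obese libraries spanned a wider range than the difference of the means for each gene, and with limma the lowest adjusted p of the 3 was 0.920.

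Among the eIF3 subunits, 7 had a higher and 4 a lower mean in Obese-MSCs, with a median log2 ratio of 0.12. The groups did not overlap for 1 of 11, against 11.8% of all genes. EIF3H, a subunit of the complex (chromosome 4 from 21955026 to 22053683), was at 30.8, 46.6 and 33.1 normalized counts in untreated Obese libraries 1, 2 and 3 and 17.2, 29.8 and 21.6 in Lean libraries 7, 8 and 9. Each Obese library was above each Lean library, the closest being 0.988 apart. The means were 36.8 ± 8.52 and 22.8 ± 6.41 (SD, n = 3 each), a log2 ratio of 0.69, at a limma adjusted p of 0.703, and the gene did not meet the criteria. EIF3A, which encodes the largest subunit of eIF3, had means of 46.1 ± 5.28 and 45.6 ± 11.8 (SD, n = 3 each) and a log2 ratio of 0.02. EIF3D, a subunit that can bind the cap itself, had 9.17, 15.3 and 8.40 in the Obese and 6.93, 8.93 and 14.3 in the Lean libraries, a log2 ratio of 0.12. Without Lean library 7 the log2 ratio of EIF3D was -0.09. The log2 ratios of the 11 subunits ran from -0.48 to 0.69, so both signs occurred within the complex.

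Of the 11 cap-binding complex genes, relatives and helpers, 7 had a higher and 4 a lower mean in Obese-MSCs, with a median log2 ratio of 0.13. EIF4A1, the main RNA helicase of the complex (chromosome 12 from 52868479 to 52874248), was at 90.2, 89.1 and 81.3 normalized counts in untreated Obese libraries 1, 2 and 3 and 63.4, 67.5 and 68.8 in Lean libraries 7, 8 and 9. Here the spread within each group was small and the groups were 12.5 normalized counts apart. The means were 86.9 ± 4.85 and 66.6 ± 2.84 (SD, n = 3 each), a log2 ratio of 0.38. The ratio of 1.31 was under the study's limit of 1.4, though EIF4A1 met the p criterion, and limma gave an adjusted p of 0.779. Leaving out each library in turn kept the log2 ratio between 0.35 and 0.43. The p criterion alone was met by 2 of the 43 genes (EIF4A1 and EIF2B5), or 4.65%, against 6.04% of all genes.

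EIF4E3, a relative of the cap-binding protein eIF4E (chromosome 13, overlapping GPR27), had 37.0, 47.4 and 48.1 normalized counts in the Obese and 23.9, 39.7 and 24.7 in the Lean libraries. Lean library 8 was above Obese library 1, so the groups overlapped, and the log2 ratio was 0.59, limma adjusted p 0.708. EIF4E itself had 9.58, 2.77 and 8.16 in the Obese and 6.71, 5.96 and 3.10 in the Lean libraries, a log2 ratio of 0.38. EIF4G1, the scaffold of the complex, had means of 51.1 ± 4.57 and 46.7 ± 4.76 (SD, n = 3 each) and a log2 ratio of 0.13. It lies on chromosome 13 as EIF2B5 does, 133161 bp away, and its groups overlapped. EIF4A2, a helicase closely similar to EIF4A1, had means of 28.8 ± 5.15 and 26.4 ± 7.21 (SD, n = 3 each) and a log2 ratio of 0.13. Without Lean library 7 the log2 ratio of EIF4A2 was -0.05. Reads of EIF4A1 and EIF4A2, of EIF1 and EIF1B, of EIF5A and EIF5A2 and of the EIF4E genes may have been divided where their sequences are similar. How far the sequences are shared was not tested, so the values of these genes are less certain.

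The eIF4E-binding proteins had the lowest median log2 ratio of the roles, -0.58 over the 3 genes with enough signal for a ratio, with overlapping groups in each. EIF4ENIF1, which carries eIF4E into the nucleus and helps to silence mRNAs (chromosome 14), had 17.6, 8.48 and 7.30 normalized counts in the Obese and 26.9, 19.9 and 13.4 in the Lean libraries. Obese library 1 was above Lean library 9, and the other Obese libraries were below all Lean libraries. The log2 ratio was -0.85, the lowest of the 43 genes, limma adjusted p 0.704, and without Lean library 7 it was -0.58. EIF4EBP2 (chromosome 14, overlapping NODAL), a repressor of eIF4E released by mTORC1, had 52.8, 65.5 and 45.0 in the Obese and 112, 60.6 and 59.6 in the Lean libraries, a log2 ratio of -0.51. The high Lean value came from library 7, without which the log2 ratio was -0.14, and Obese library 2 was above the other Lean libraries. EIF4EBP3, a smaller relative (chromosome 2), had 12.3, 19.1 and 8.51 in the Obese and 22.5, 27.8 and 9.32 in the Lean libraries, a log2 ratio of -0.58. EIF4EBP1 had a mean under 3 normalized counts in both groups, 1.57, 1.91 and 0.0470 against 0.0301, 0.992 and 2.04, so its ratio is not given, and a difference was not detectable at this depth.

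Among the genes listed under scanning and subunit joining, 1 had a higher and 4 a lower mean in Obese-MSCs. EIF1AD (chromosome 2 from 6334882 to 6340125) was listed with them and encodes a protein with a domain like that of eIF1A. Its own part in scanning or joining was not tested. It was at 66.0, 71.1 and 64.8 normalized counts in untreated Obese libraries 1, 2 and 3 and 124, 90.3 and 85.3 in Lean libraries 7, 8 and 9. All Obese libraries were below all Lean libraries by at least 14.2, the widest separation among the 43 genes. The means were 67.3 ± 3.36 and 99.9 ± 21.0 (SD, n = 3 each), a log2 ratio of -0.57, limma adjusted p 0.694 and a 95% interval of the limma difference from -0.9996 to -0.09. Without Lean library 7 the log2 ratio was -0.38. EIF1AD did not meet the p criterion of the study on the values as deposited. Its span overlaps that of BANF1, so reads over any shared exons cannot be assigned to either gene.

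EIF1, which guards start codon selection, and EIF1AX, its partner on the small subunit, were each listed at 7.88, 5.67 and 5.94 in the Obese libraries (normalized counts), and at 8.95, 7.94 and 4.14 and at 9.01, 7.94 and 7.20 in the Lean libraries. EIF1B, a close copy of EIF1, had 8.18, 2.81 and 1.36 in the Obese and 1.17, 3.98 and 0.0109 in the Lean libraries, and its log2 ratio of 1.26, on a Lean mean under 3, lay between 0.28 and 2.80 with libraries left out. EIF5B, the GTPase that joins the subunits (chromosome 3), had means of 52.4 ± 5.40 and 56.3 ± 14.96 (SD, n = 3 each). The groups overlapped for all of these genes.

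Of the remaining genes, EIF5A had the highest normalized count of the 43, which is not a ranking of the mark per length, since exon lengths were not used. It encodes the hypusine-bearing factor that helps ribosomes through difficult stretches, and lies on chromosome 12, 203793 bp from EIF4A1. It had 146, 130 and 138 normalized counts in the Obese and 211, 133 and 141 in the Lean libraries, so that the highest value was again that of Lean library 7. The log2 ratio was -0.23, and without that library 0.011, with means of 138 and 137 normalized counts. EIF6, which keeps the ribosomal subunits apart, had 14.9, 8.45 and 16.3 in the Obese and 15.7, 11.9 and 11.3 in the Lean libraries, a log2 ratio of 0.03. For EIF5A2, a relative of EIF5A, the log2 ratio was -0.59 on means of 4.22 and 6.34 normalized counts, with groups that overlapped.

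**Figure D3:**
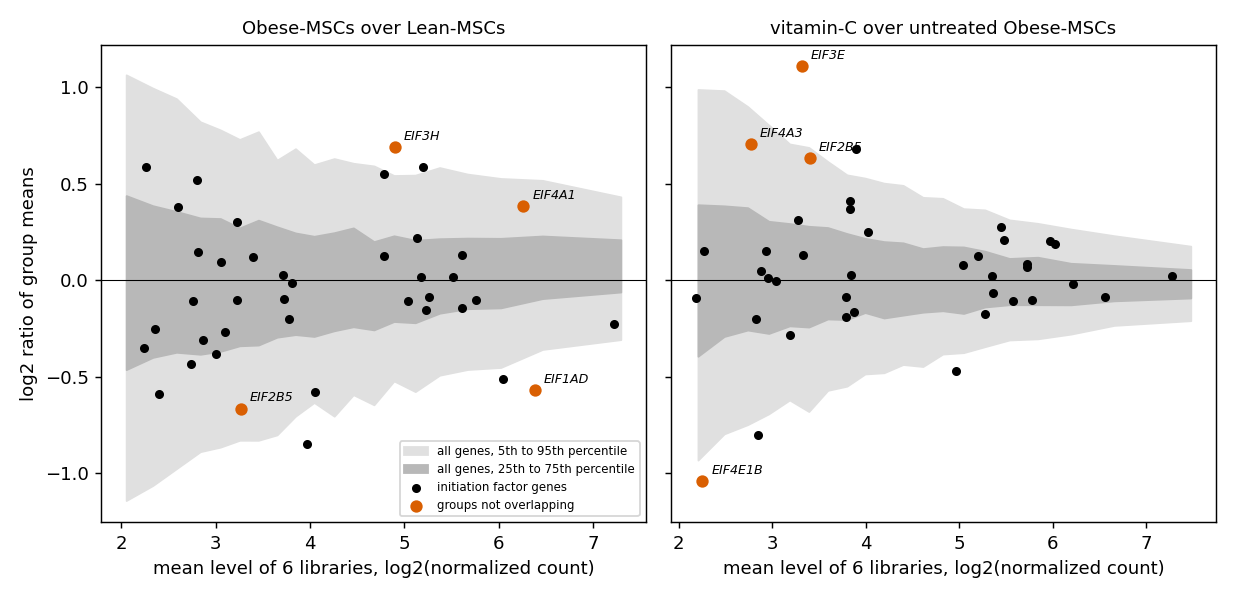
Log2 ratio of group means (y axis) against the mean level over 6 libraries (x axis, log2 normalized count) for the 40 initiation factor genes tested with limma in each table, over bands holding the middle part of all genes of like level. In the left panel 5 genes lie outside the 5th to 95th percentile band (EIF3H, EIF4E3, EIF1AD, EIF4EBP2 and EIF4ENIF1). In the right panel another 5 do (EIF3E, EIF3K, EIF2B2, EIF3I and EIF4E1B), while EIF2B5 lies inside the band in both. By definition the band leaves out 5% of all genes at each end.

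Set beside genes of like level, EIF2B5 was not extreme. Of the 40 tested genes, 5 (12.5%) had a log2 ratio outside the range from the 5th to the 95th percentile of genes of like level. By definition this range leaves out 5% of all genes at each end. EIF3H and EIF4E3 lay above it and EIF1AD, EIF4EBP2 and EIF4ENIF1 below it. When Lean library 7 was left out and the range computed again, 1 of 40 (2.5%) lay outside, EIF1AD, below it. EIF2B5, with a mean near 10 normalized counts, lay inside. The coefficient of variation between the Lean libraries had a median of 25.9% over the initiation factor genes with a mean over 30. Over all genes at that level it was 16.9%. Both Lean values include library 7, and this spread was not computed without it. Between the untreated Obese libraries the median was 12.8% for the initiation factor genes, against 18.8% for all genes.

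When vitamin-C-treated were compared with untreated Obese-MSCs, EIF2B5 was again the single gene that met the criteria, now as high in the treated cells. That was 1 of 43 genes (2.33%) against 1.92% of all genes, 1.11% being high. The groups did not overlap for 4 genes (9.30%) against 5.91% of all genes, with EIF2B5, EIF3E and EIF4A3 higher in every treated library (3.24% of all genes) and EIF4E1B lower (2.67%). With limma none of 40 tested genes passed an adjusted p of 0.05, the lowest being 1.00, and EIF3E alone (2.5%) had an unadjusted limma p of 0.05 or less, against 0.974% of all genes tested. The ratio was above 1 for 24 genes (55.8%) and below 1 for 19, against 50.6% of all genes above 1, and the median log2 ratio was 0.02, against 0.0045 for all genes. Treated and untreated means were within 1.4-fold of each other for 36 of the 43 genes (83.7%) and for 78.5% of all genes. The untreated libraries of this table are the same 3 libraries as in the first, normalized anew with values 1.10 to 1.13 times as large for these genes at the median. They are the denominator of the ratio here and the numerator in the first table, so the calls for EIF2B5 in the 2 tables are not independent.

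**Figure D4:**
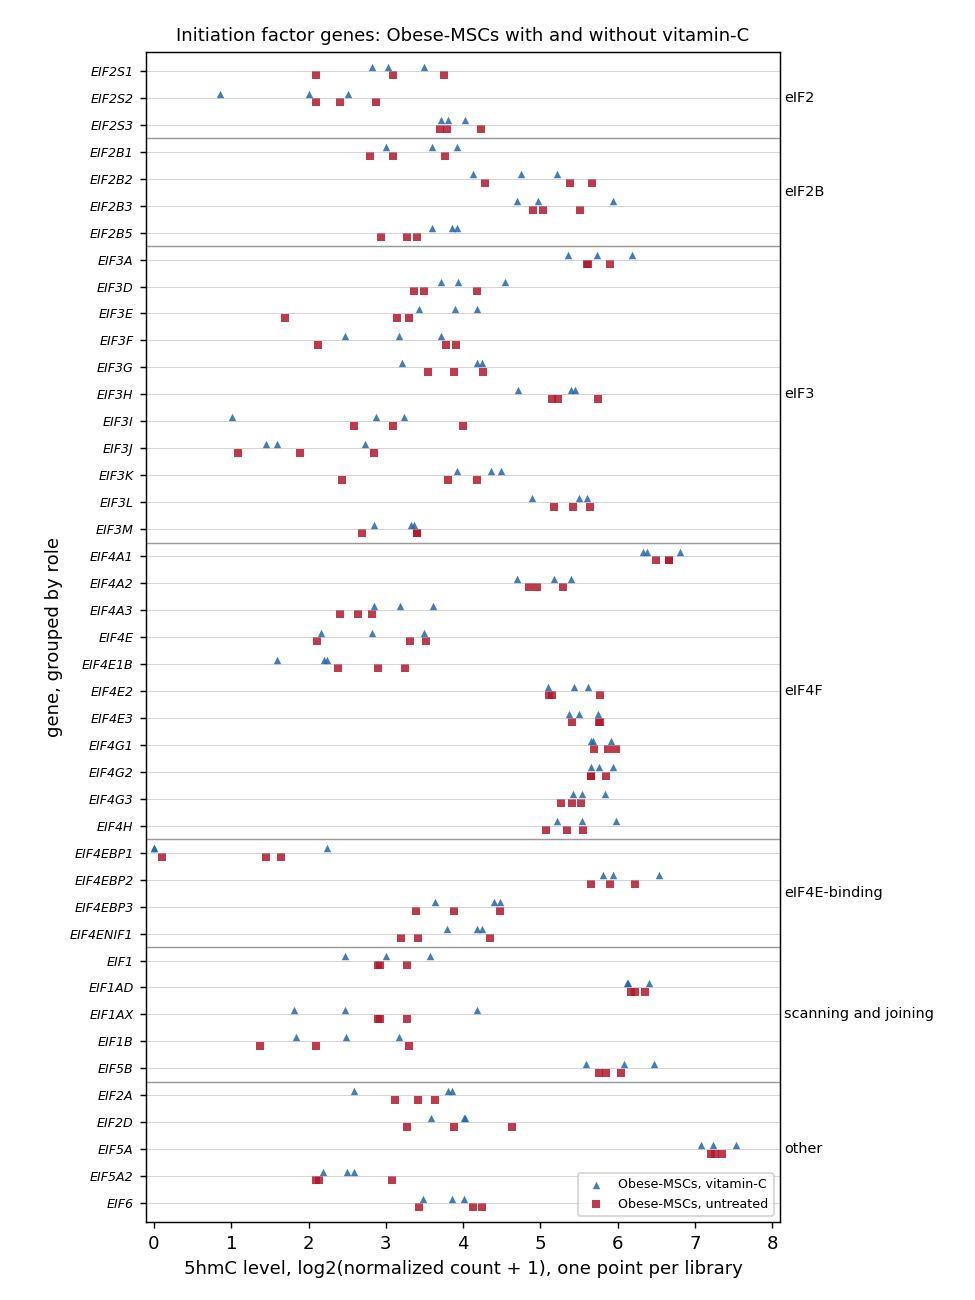
5hmC level on a log2(normalized count + 1) scale (x axis) of the 43 initiation factor genes (y axis, grouped by role) in the 3 vitamin-C-treated (triangles) and the 3 untreated (squares) Obese-MSC libraries. The groups are apart for EIF2B5, EIF3E, EIF4A3 and EIF4E1B and overlap for the other genes.

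EIF2B5 had 14.1, 11.06 and 13.4 normalized counts in treated libraries 4, 5 and 6 and 8.64, 9.63 and 6.65 in untreated libraries 1, 2 and 3. Every treated library was above every untreated library, the closest pair being 1.44 apart. The means were 12.9 ± 1.59 and 8.31 ± 1.51 (SD, n = 3 each), a ratio of 1.55 and a log2 ratio of 0.63. The exact permutation test again gave its smallest p of 0.1, and limma an adjusted p of 1.00 with a 95% interval of its log2 difference from -0.17 to 1.33. The value of treated library 4 came from 14 reads, with an exact Poisson interval of 7.65 to 23.5 reads. Over the 6 omissions of a library the log2 ratio stayed between 0.49 and 0.75, and the criteria were met in 2 of 6 cases, without treated library 5 and without untreated library 2.

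The other eIF2B subunits overlapped between treated and untreated libraries. EIF2B1 had 14.1, 11.11 and 7.04 normalized counts in the treated and 5.92, 7.54 and 12.6 in the untreated libraries, a log2 ratio of 0.31. EIF2B2 had 36.2, 16.5 and 25.9 in the treated and 40.7, 18.4 and 49.8 in the untreated libraries, a log2 ratio of -0.47. EIF2B3 had 30.2, 24.8 and 60.4 in the treated and 31.9, 29.0 and 44.8 in the untreated libraries, a log2 ratio of 0.13. The 95% intervals of their limma differences were wide and all held 0, from -0.57 to 1.15 for EIF2B1, from -1.22 to 0.40 for EIF2B2 and from -0.67 to 0.76 for EIF2B3. EIF2B5 held 14.9%, 17.4% and 12.6% of the summed 5hmC of the 4 genes in treated libraries 4, 5 and 6 and 9.92%, 14.9% and 5.84% in untreated libraries 1, 2 and 3, ranges that overlapped.

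The eIF2 subunits overlapped too. EIF2S1 had 6.04, 10.2 and 7.13 normalized counts in the treated and 3.26, 7.51 and 12.4 in the untreated libraries, a log2 ratio of 0.01. EIF2S3 had 12.1, 12.9 and 15.3 in the treated and 12.004, 12.9 and 17.8 in the untreated libraries, a log2 ratio of -0.09. EIF2S2 had 3.02, 4.69 and 0.814 in the treated and 4.29, 3.26 and 6.30 in the untreated libraries. At these few normalized counts its log2 ratio of -0.70 lay between -1.27 and -0.26 with libraries left out, and the gene was below the level tested with limma.

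EIF3E, a subunit of eIF3 also known as INT6 (chromosome 4 from 29288878 to 29343593), was at the highest log2 ratio after vitamin-C. It had 17.1, 13.9 and 9.73 normalized counts in treated libraries 4, 5 and 6 and 7.85, 2.24 and 8.81 in untreated libraries 1, 2 and 3. The groups were 0.916 apart, and untreated library 2 was far below the others. The means were 13.6 ± 3.69 and 6.30 ± 3.55 (SD, n = 3 each), a log2 ratio of 1.11, limma adjusted p 1.00, and the gene did not meet the criteria. EIF3K, a small subunit, had 14.1, 19.5 and 21.6 in the treated and 13.006, 17.04 and 4.42 in the untreated libraries, a log2 ratio of 0.68 with groups that overlapped. EIF3D had 12.1, 22.3 and 14.3 in the treated and 10.3, 17.1 and 9.32 in the untreated libraries, a log2 ratio of 0.41. The median log2 ratio of the 11 eIF3 subunits was -0.01, with 5 above and 6 below 0, and EIF3I, a core propeller subunit, had the lowest at -0.81. EIF3H had a log2 ratio of -0.18 and groups that overlapped.

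In the cap-binding group, EIF4A3, a helicase that sits in the exon junction complex (chromosome 12 from 2285679 to 2311750), was at 8.05, 11.2 and 6.18 normalized counts in the treated and 6.08, 4.32 and 5.21 in the untreated libraries. The groups nearly touched, with 0.0937 normalized counts between them, less than 1 read was worth in treated library 4, and the log2 ratio was 0.70. EIF4E1B, a germ cell relative of eIF4E (chromosome 2 from 81277086 to 81281668), was at 2.02, 3.72 and 3.59 in the treated and 4.21, 8.53 and 6.48 in the untreated libraries. Its separation was 0.491 and its log2 ratio -1.04, the lowest of the 43 genes. EIF4A1 had 79.5, 82.3 and 111 in the treated and 100, 101 and 89.5 in the untreated libraries, a log2 ratio of -0.09 with groups that overlapped. With limma, all 11 genes of the group had an adjusted p of 1.00.

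The remaining roles showed no separation after vitamin-C. EIF4ENIF1 had 17.1, 12.9 and 17.9 normalized counts in the treated and 19.3, 9.72 and 8.14 in the untreated libraries, a log2 ratio of 0.37, and EIF4EBP3 a log2 ratio of 0.25. EIF4EBP1 was again under 3 on average, with 0.00175, 0 and 3.71 in the treated and 1.74, 2.13 and 0.0794 in the untreated libraries. EIF1AD had 83.5, 69.4 and 68.9 in the treated and 73.4, 80.4 and 71.3 in the untreated libraries, a log2 ratio of -0.02. EIF6 had a log2 ratio of -0.19 and EIF5A, with 184, 149 and 134 in the treated and 162, 147 and 151 in the untreated libraries, one of 0.02.

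Other genes of translational control were counted by lists. All 4 eIF2 kinase genes were measured and none met the criteria in either comparison. Of 11 genes of the integrated stress response, which follows eIF2 phosphorylation, DDIT3 (the transcription factor CHOP) met the criteria as low in untreated Obese-MSCs (2.43% of all genes) and ATF5 (a transcription factor translated under stress) as high after vitamin-C (1.11% of all genes). DDIT3 had 18.5, 20.9 and 21.1 normalized counts in the Obese and 43.8, 30.8 and 29.8 in the Lean libraries, a log2 ratio of -0.79, limma adjusted p 0.679. ATF5 had 8.05, 11.14 and 9.84 in the treated and 4.30, 6.39 and 2.79 in the untreated libraries, a log2 ratio of 1.11, limma adjusted p 1.00. Neither pair of groups overlapped, and both adjusted values are far from the threshold.

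Of 14 genes from mTORC1 to eIF4F, MKNK2, the kinase that phosphorylates eIF4E, and MLST8, a subunit of mTORC1, met the criteria as high in untreated Obese-MSCs, against 4.5% of all genes in either direction. MKNK2 had 46.9, 38.9 and 35.5 normalized counts in the Obese and 23.8, 32.8 and 19.6 in the Lean libraries, a log2 ratio of 0.67, limma adjusted p 0.694. MLST8 had 13.8, 19.96 and 16.5 in the Obese and 10.2, 9.93 and 12.3 in the Lean libraries, a log2 ratio of 0.63, limma adjusted p 0.779. After vitamin-C none of the 14 met the criteria. Among 13 partners of initiation without an EIF symbol, 11 genes of elongation and termination, 2 hypusine enzymes and 2 mitochondrial initiation factors, none met the criteria in either comparison. None of the genes in these lists passed the limma adjusted threshold.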

How the data were processed

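Per the labels and the paper's methods, the authors aligned hMeDIP-seq reads with Bowtie2 (2.3.3.1) to the porcine assembly Sscrofa11.1, removed duplicates with Picard (1.67), counted exonic reads per gene with HTSeq (0.9.1) and processed them with edgeR (3.28.1). The deposited 5hmC signal is a fractional normalized count, made separately for each of 2 tables, so no value was compared across tables, and a change in total 5hmC is not visible. Whole reads were recovered within 0.05 of a read in 2 of 12 columns only, so no count test was run, and in the other columns depth is unknown. Residual values near 0 in the second (645 values) were set to 0.

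The study's criteria were applied to every gene. Independently, limma 3.58.1 (R 4.3.3) tested log2(value + 1) with a mean trend in the 80% of genes with the highest means, Benjamini-Hochberg adjusted over all of them. The pseudocount shrinks differences of low genes. For single genes all 20 arrangements gave an exact two-sided permutation p. Log2 ratios are of group means without a pseudocount. P-values set the difference of the group means against the variation between these libraries.

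Genes, lists and tests were chosen with earlier results of these data known, EIF2B5 included. Named were all eIF2 and eIF2B subunits, genes meeting the criteria, the 3 highest and 3 lowest log2 ratios at a mean of at least 10, genes whose groups did not overlap, and genes with a mean of 3 or less in a group. Others (EIF1, EIF1AX, EIF3A, EIF3I, EIF4E, EIF4EBP2, EIF4G1, EIF4A2, EIF5A, EIF5A2 and EIF5B) were added after their values were seen. Levels per coding length were planned but not computed, since coding lengths were not used here. Positions are RefSeq spans in Sscrofa11.1. Scripts were tested on simulated data and ran in Python 3.11.15 (pandas 2.3.3, numpy 2.4.6, matplotlib 3.10.9, scipy 1.17.1). Alternatives were other thresholds, variance models, pseudocounts, filters, size factors, quantile normalization, group medians and each library left out.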

Additional observations from a re-analysis of the deposited data

How the results depend on the processing

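For Obese-MSCs against Lean-MSCs, the number of initiation factor genes meeting the study's criteria was 1. It was 0 at a p threshold of 0.01 (1.14% of all genes) and 0 with unequal variances (3.25%). With no ratio threshold it was 2 (EIF2B5 and EIF4A1), against 6.04% of all genes. It was also 2 (EIF1AD and EIF2B5) with the test on log2(value + 1) (4.55%) and with quantile normalization (4.63%). With each library left out it was 0 to 1, against 4.03% to 5.04% of all genes. EIF2B5 kept a log2 ratio between -0.82 and -0.53 but no longer met the criteria without untreated library 1, 2 or 3 or Lean library 8 or 9, EIF2B2 was called in its place without untreated library 2 and EIF4E3 without Lean library 8. After vitamin-C the number was 1, against 1.92% of all genes, and 0 at a p threshold of 0.01. With each library left out it was 0 to 2. The share of all genes under these settings is not given here, so these counts cannot be set against it. EIF2B5 kept a log2 ratio between 0.49 and 0.75 but no longer met the criteria without treated library 4 or 6 or untreated library 1 or 3, EIF4A3 was called without treated library 6, and EIF4E1B and EIF4ENIF1 without untreated library 1. With limma the number was 0 in both comparisons under every alternative run, and the lowest adjusted p among the genes ranged from 0.586 to 0.965 and was 1.00 throughout after vitamin-C. The median log2 ratio was -0.12 to 0.011 with libraries left out in the first comparison, the upper end without Lean library 7. In the second it was -0.0015 to 0.06, and 0.10 with group medians. Of 20 named genes, the sign of the log2 ratio changed under at least 1 of 10 alternatives in 5 genes in the first comparison (EIF2B3, EIF2S2, EIF3D, EIF3K and EIF6) and in 6 in the second (EIF1AD, EIF1B, EIF2B3, EIF2S1, EIF2S3 and EIF3H). The genes added after their values were seen were not among these 20. Of the added genes, EIF1, EIF3I, EIF4A2, EIF5A and EIF5B changed sign in the first comparison without Lean library 7. The cause of these changes was not tested. For genes whose groups do not overlap, leaving out a library cannot change the direction. No paired analysis was possible because the 3 groups share no replicate numbers and the labels do not tie treated to untreated cultures, although both may come from the same pigs. Depth limits the low genes, as 16 of the 43 had fewer than 10 reads in Lean library 8.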
